A study of Homo sapiens with 9 samples.

Results

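The immediate early EGR, IER and MIDN genes were examined as a set of 9 symbols: EGR1, EGR2, EGR3, IER2, IER3, IER5, MIDN, ZFP36 and PHLDA1. They were read from the deposited array table through the platform's gene table, with the row of the highest mean over all arrays standing for a gene. A named row was found for 6 of the 9 (EGR1, EGR3, IER2, IER3, IER5 and MIDN), out of 14884 genes measured by named rows. EGR2, ZFP36 and PHLDA1 were not analysed here. The row of each gene was chosen by its mean log2 value over the 9 arrays, and the symbols were selected on function with earlier results of these arrays known, among them the log2 differences from control of MIDN and IER5. The differences of these 2 genes from control are therefore given as a description and without a p-value, and nothing is read from whether they were called.

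The cells were of the MDA-MB-231 line, derived from a triple-negative breast cancer (without estrogen receptor, progesterone receptor and amplified HER2), grown in DMEM with 10% serum. JQ1, a small molecule that displaces the BET bromodomain proteins from acetylated chromatin, was given at 500 nM for 12 h (3 arrays, JQ1 12 h) or for 24 h (3 arrays, JQ1 24 h), and 3 control arrays came from cells with no agent at time 0. Total RNA was measured on Affymetrix Human Gene 2.0 ST arrays, 1 per sample. No vehicle is named for the controls, and whether replicates were separate cultures is not stated. The question was which transcripts change under BET inhibition, here for genes that answer growth signals. Both JQ1 groups were set against the same 3 controls, which are matched to neither time, so solvent and time in culture cannot be told apart from JQ1.

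Immediate early genes are transcribed directly after a growth factor, stress or serum signal, without the need for new protein synthesis. Many carry CArG boxes, the binding motif of serum response factor (SRF), in their promoters, and their release of paused RNA polymerase II depends on the kinase P-TEFb. EGR1 and EGR3 encode zinc finger transcription factors that bind GC-rich DNA. IER5 encodes a cofactor of the heat shock factor HSF1, and IER3 a regulator of apoptosis. IER2 encodes a nuclear protein of the IER family. MIDN encodes midnolin, which carries short-lived nuclear proteins, products of immediate early genes among them, to the proteasome.

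Array values are on a log2 scale, so a difference of 1 is a doubling, and they are relative to the other transcripts on the array. Array medians lay between 4.92 and 4.96 over all rows. As a check of the cell line, the median over the 9 arrays was 10.6 for VIM, 11.75 for AXL, 12.23 for MSN and 7.40 for CD44, genes of mesenchymal breast cancer lines. Of the luminal genes measured it was 4.05 for PGR, 4.93 for FOXA1, 5.03 for ESR1, 5.56 for ERBB3, 6.20 for EPCAM and 6.61 for GATA3, the last 2 above the median of all gene means (6.13). It was 4.30 for the leukocyte gene CD14, and 4.23 and 4.97 for the endothelial genes PECAM1 and VWF. GATA3 fell by 0.38 at 12 h and by 0.41 at 24 h under JQ1 (limma adjusted p = 0.030 and 0.017), and EPCAM fell by 0.28 at 12 h (adjusted p = 0.048). VIM differed by 0.28 and 0.30 and was not called (limma adjusted p = 0.087 and 0.056). The part of these shifts in the results below was not tested. Control 3 stood apart from the other controls. Over all rows Controls 1 and 2 correlated at 0.995, whereas Control 3 correlated with them at 0.983 and with JQ1 12 h replicate 2 at 0.989. For this reason differences from control are given with and without it. Without Control 3 VIM was called up, by 0.36 at 12 h and 0.38 at 24 h (limma adjusted p = 0.0090 and 0.0067). GATA3 was still called at both times (adjusted p = 0.028 and 0.019), and EPCAM at 12 h (adjusted p = 0.044). In a bulk sample, fewer cells with a transcript and less of it per cell cannot be told apart.

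The promoters of 4 of the 6 measured genes (EGR1, IER2, IER5 and MIDN) were found in RefSeq (GRCh38.p14). The 250 bases before the start of EGR1, IER5 and MIDN are shown because MIDN and IER5 lay above all controls in the JQ1 arrays and EGR1 below 2 of them. Each lies on the plus strand, directly upstream of an annotated transcript start. Capitals mark CArG boxes and the EGR motif GCGNGGGCG in EGR1 (chr5:138465229-138465478), the heat shock motif GAANNTTC in IER5 (chr1:181088450-181088699), and the cyclic AMP response half-site TGACG, here on the opposite strand, in MIDN (chr19:1248333-1248582).
EGR1: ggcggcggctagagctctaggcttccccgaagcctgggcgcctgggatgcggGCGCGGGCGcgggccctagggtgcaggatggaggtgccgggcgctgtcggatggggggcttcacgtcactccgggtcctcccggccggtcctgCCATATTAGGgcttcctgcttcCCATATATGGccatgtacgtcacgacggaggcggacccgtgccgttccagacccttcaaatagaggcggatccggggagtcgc
IER5: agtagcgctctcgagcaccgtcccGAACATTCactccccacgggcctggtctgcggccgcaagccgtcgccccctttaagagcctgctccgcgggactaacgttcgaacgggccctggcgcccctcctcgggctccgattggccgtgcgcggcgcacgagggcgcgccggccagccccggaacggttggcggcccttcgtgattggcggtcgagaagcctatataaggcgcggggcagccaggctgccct
MIDN: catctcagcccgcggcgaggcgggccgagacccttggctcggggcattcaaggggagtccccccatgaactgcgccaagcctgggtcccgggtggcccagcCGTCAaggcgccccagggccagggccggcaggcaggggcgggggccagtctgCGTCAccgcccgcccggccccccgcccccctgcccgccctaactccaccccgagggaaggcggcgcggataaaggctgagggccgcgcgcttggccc

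Both strands of the 250-base windows were searched for these 4 motifs. EGR1 held 2 CArG boxes, CCATATTAGG and CCATATATGG, whose first bases lay 105 and 83 bases before the start, and 1.16% of the 35116 windows in the table held such a box. It also held 1 GCGNGGGCG, found in 8.41% of windows, and 2 TGACG, found in 21.2%. No site in EGR1 overlapped another. No CArG box was in the windows of IER2, IER5 or of either of the 2 MIDN starts, which says only that these letters are not in those windows. IER5 held GAACATTC 226 bases before its start, a match to GAANNTTC, which 5.78% of windows held. The first MIDN start held 2 TGACG and the second 1 GCGNGGGCG, and IER2 held 1 TGACG.

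MIDN was higher under JQ1 at both times. Its log2 values were 10.13, 10.03 and 10.01 in the JQ1 12 h arrays and 10.41, 10.11 and 10.03 in the JQ1 24 h arrays, against 8.86, 8.84 and 8.03 in Controls 1, 2 and 3. All 6 JQ1 arrays lay above all 3 controls. The difference was 1.49 (SE 0.21) at 12 h, or 2.80-fold, and 1.61 (SE 0.21) at 24 h, or 3.05-fold. MIDN had the tenth highest difference of the 14884 genes at 12 h and the eleventh highest at 24 h. Its control mean of 8.57 ± 0.47 (SD, n = 3) included the low Control 3. Without Control 3 the difference was 1.21 (SE 0.11) at 12 h and 1.34 (SE 0.11) at 24 h, or 2.32-fold and 2.52-fold. The 12 h level was tight at 10.06 ± 0.06 and the 24 h level was 10.18 ± 0.20 (SD, n = 3 each). The 24 h arrays overlapped the 12 h arrays, with a difference of 0.12 between them (95% confidence interval −0.34 to 0.59, limma adjusted p = 0.95).

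IER5 was also higher, by less. Its values were 8.32, 8.17 and 8.29 in the JQ1 12 h arrays and 8.10, 7.93 and 8.06 in the JQ1 24 h arrays, against 7.76, 7.69 and 7.51 in Controls 1, 2 and 3. The JQ1 arrays of both times lay above every control. The difference was 0.60 (SE 0.09), or 1.52-fold, at 12 h and 0.38 (SE 0.09), or 1.30-fold, at 24 h. Without Control 3 these were 0.53 (SE 0.09) and 0.30 (SE 0.09). Without Control 2, replicate 1 of JQ1 24 h or its replicate 3, the 24 h difference was 0.40, 0.34 and 0.36, and IER5 was then not among the genes called. All 3 of the 24 h values lay below all 3 of the 12 h values, a difference of −0.23 that did not pass the test (SE 0.09, limma adjusted p = 0.70). The 24 h arrays lay wholly below the 12 h arrays for 7.11% of all genes.

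**Figure D1:**
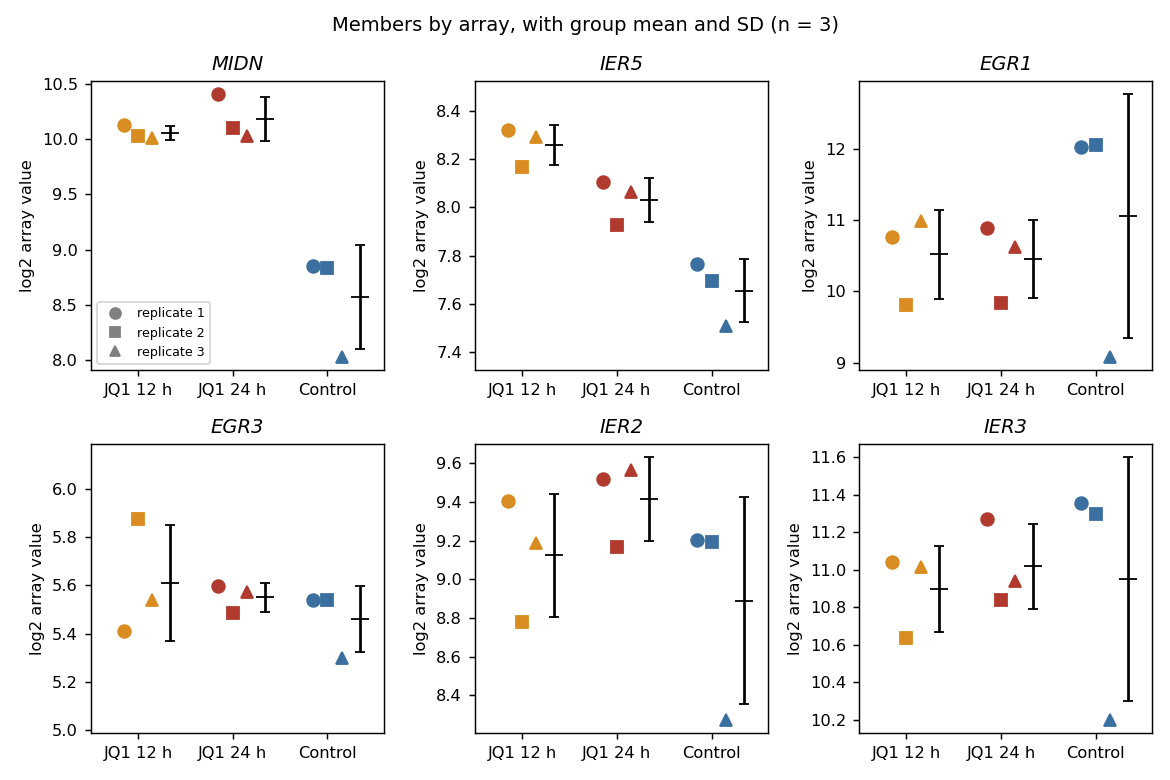
Log2 array values of the 6 measured genes in the JQ1 12 h, JQ1 24 h and control arrays (marker shape gives the replicate), with the group mean and SD in black (n = 3). MIDN and IER5 lay above every control in all 6 JQ1 arrays, and Control 3 (blue triangle) was the lowest array of all 9 for each of the 6 genes.

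EGR1 lay below Controls 1 and 2 but above Control 3 in the JQ1 arrays, and it was not called with all arrays. It stood at 10.77, 9.81 and 10.98 in the JQ1 12 h arrays and at 10.89, 9.83 and 10.63 in the JQ1 24 h arrays, against 12.03, 12.06 and 9.08 in Controls 1, 2 and 3. Replicate 2 was the low array at each time, nearer to Control 3 than the others were. With all arrays the difference was −0.53 (SE 0.73, 95% confidence interval −2.18 to 1.11, limma adjusted p = 0.77) at 12 h and −0.60 (SE 0.73, −2.25 to 1.04, adjusted p = 0.70) at 24 h. Without Control 3 it was −1.52 (SE 0.36, adjusted p = 0.015) at 12 h and −1.59 (SE 0.36, adjusted p = 0.012) at 24 h, which is 2.88-fold and 3.02-fold lower. Against Control 3 alone the JQ1 means were 1.44 and 1.37 higher, with no test. The sign of the EGR1 difference thus depended on which control was used. A second EGR1 row also had every JQ1 array above Control 3 and below Controls 1 and 2. It read 7.77, 6.81 and 7.85 at 12 h and 7.91, 6.26 and 7.87 at 24 h, against 9.31, 9.07 and 6.24 in Controls 1, 2 and 3. Its differences were −0.73 at 12 h and −0.86 at 24 h with all arrays (limma adjusted p = 0.69 and 0.58 over all 16098 named rows), and −1.71 and −1.84 without Control 3 (adjusted p = 0.034 and 0.024).

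IER3 showed the same placement of the JQ1 arrays on a smaller scale. Its values were 11.04, 10.63 and 11.01 in the JQ1 12 h arrays and 11.27, 10.84 and 10.94 in the JQ1 24 h arrays, against 11.35, 11.30 and 10.20 in Controls 1, 2 and 3. Again every JQ1 array lay between Control 3 and the other 2 controls, a placement that held for 2.29% of all genes. The difference was −0.05 (SE 0.28, limma adjusted p = 0.95) at 12 h and 0.07 (SE 0.28, adjusted p = 0.93) at 24 h. Without Control 3 it was −0.43 (SE 0.15, adjusted p = 0.086) and −0.31 (SE 0.15, adjusted p = 0.22), so IER3 was not called either way. IER3 had 11 rows in the table that held only 4 distinct sets of values. Besides the set used, 1 set read 11.38, 11.30 and 10.18 in Controls 1, 2 and 3, and another 10.94, 10.90 and 9.78. Both had every JQ1 array between Control 3 and the other controls. The dimmest set, at a mean of 7.31, differed by 0.11 at 12 h and 0.12 at 24 h (limma adjusted p = 0.80 and 0.75 over all named rows), and by −0.02 and −0.01 without Control 3 (adjusted p = 0.97 and 0.99). It did not show the placement between the controls. Replicate 2 of JQ1 24 h (6.969) lay below Control 3 (6.973) there. Replicates 1 and 3 of JQ1 24 h (7.50 and 7.59) lay above Controls 1 and 2 (7.41 and 7.31).

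IER2 was not called at either time. It stood at 9.41, 8.78 and 9.19 in the JQ1 12 h arrays and at 9.52, 9.17 and 9.56 in the JQ1 24 h arrays, against 9.20, 9.19 and 8.27 in Controls 1, 2 and 3. The groups overlapped at both times. The difference was 0.23 (SE 0.26, 95% confidence interval −0.35 to 0.82, limma adjusted p = 0.71) at 12 h and 0.53 (SE 0.26, −0.06 to 1.11, adjusted p = 0.25) at 24 h. Without Control 3 it was −0.07 (SE 0.18, adjusted p = 0.87) and 0.22 (SE 0.18, adjusted p = 0.50).

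EGR3 was not called at either time, and it was the only one of the 6 whose mean lay under the median of all gene means (6.13). Its values were 5.41, 5.88 and 5.54 in the JQ1 12 h arrays and 5.60, 5.48 and 5.57 in the JQ1 24 h arrays, against 5.54, 5.54 and 5.30 in Controls 1, 2 and 3. The groups overlapped, and the differences were 0.15 (SE 0.12, limma adjusted p = 0.58) at 12 h and 0.09 (SE 0.12, adjusted p = 0.74) at 24 h. Without Control 3 they were 0.07 and 0.01 (limma adjusted p = 0.82 and 0.98). Controls 1 and 2 held exactly the same value, as they did for 4.76% of all genes. At this level the table gives no detection call, so whether EGR3 was detected is not known.

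In all, 2 of the 6 genes were called up and 0 down by limma at 12 h (2 and 0 at an unadjusted p under 0.05), beside 3.54% of all genes called up and 4.39% called down. The counts were the same at 24 h, beside 5.17% up and 6.34% down. A call is a limma adjusted p under 0.05 over all 14884 genes. MIDN and IER5, the genes called, were known to be so when the set was chosen, and nothing is read from the count. All JQ1 arrays of a time lay above all controls for these 2 genes, as they did for 11.3% of all genes at 12 h and 13.3% at 24 h. Without Control 3, 2 were called up and 1 (EGR1) down at both times. Over all genes without it, 9.57% were called up and 10.5% down at 12 h, and 9.61% and 11.3% at 24 h. All JQ1 arrays of a time lay below Controls 1 and 2 for EGR1 and IER3, as they did for 21.3% of all genes at 12 h and 22% at 24 h. Between 24 h and 12 h 0 of the 6 were called by limma, 1 of the 6 (IER5) had an unadjusted p under 0.05, and 0.00672% of all genes were called.

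**Figure D2:**
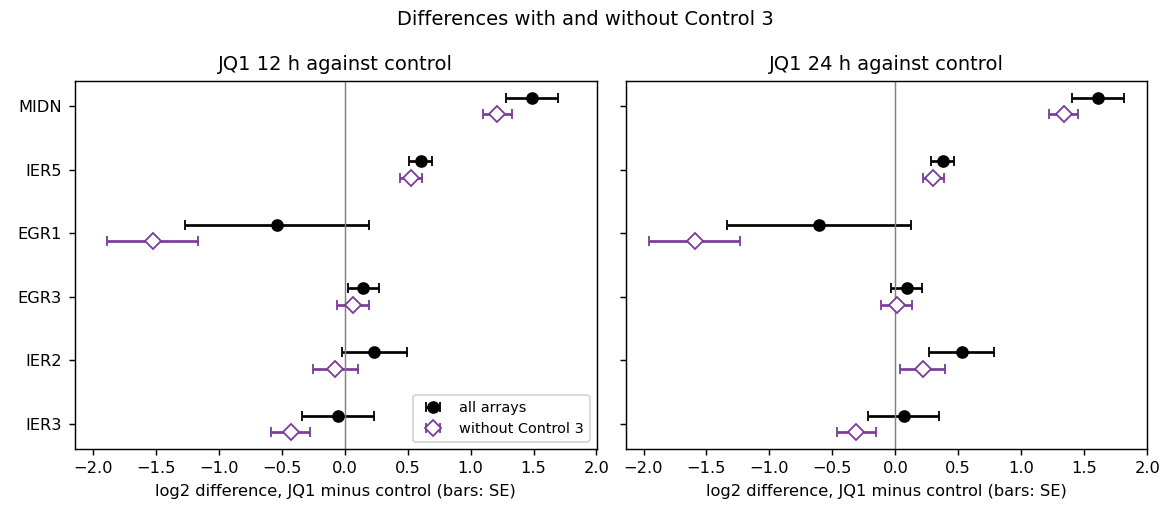
Log2 difference of JQ1 minus control for each gene at 12 h (left) and 24 h (right), with all arrays (filled circles) and without Control 3 (open diamonds), bars showing the SE of the limma fit. MIDN and IER5 stayed on the right of 0 in both fits, EGR1 at 12 h lay at −0.53 with all arrays and at −1.52 without Control 3, and IER2 at 12 h and IER3 at 24 h changed sign.

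The spread among replicates was shared by several of these genes. Control 3 was the lowest of all 9 arrays for each of the 6 in the row that stood for it, which held for 17.5% of all genes. Its gap to the mean of Controls 1 and 2 was −2.97 for EGR1, −1.13 for IER3, −0.93 for IER2, −0.82 for MIDN, −0.24 for EGR3 and −0.22 for IER5. The median absolute gap over all genes was 0.16, and the EGR1 gap was larger than that of 99.9% of genes. Controls 1 and 2 differed by at most 0.07 in any of the 6. Within the JQ1 groups, replicate 2 was the lowest array at both times for EGR1, IER2, IER3 and IER5, which held for 15.4% of all genes. EGR1 spanned 1.17 among the 12 h arrays and 1.06 among the 24 h arrays, while MIDN spanned 0.12 and 0.38. What set Control 3 and the second replicates apart was not tested.

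Other immediate early genes were taken from a list of 30, of which 22 were measured. At 12 h 2 rose and 0 fell by limma (3 and 3 at an unadjusted p under 0.05), and at 24 h 2 rose and 1 fell (3 and 6 at an unadjusted p under 0.05). The shares of all genes called were 3.54% up and 4.39% down at 12 h, and 5.17% and 6.34% at 24 h. Median differences of the list were −0.20 and −0.05, beside 0.01 and 0.01 for all genes. Between 24 h and 12 h 0 of the list were called with all arrays (1 up and 1 down at an unadjusted p under 0.05), beside 0.00672% of all genes. Without Control 3 KLF10 was called up between these times, by 0.66 (limma adjusted p = 0.031), 1 of 22 genes called over all 14884. KLF2, a Krueppel-like transcription factor, rose by 1.37 (SE 0.14, limma adjusted p = 0.0014) at 12 h and 1.22 (SE 0.14, adjusted p = 0.0013) at 24 h. CCN2, which encodes connective tissue growth factor, rose by 0.96 (SE 0.11, adjusted p = 0.0023) and 0.97 (SE 0.11, adjusted p = 0.0014). ARC, a synaptic immediate early gene in neurons, fell by 0.84 at 24 h (SE 0.23, adjusted p = 0.044), a call that failed without any single one of 8 arrays, Control 3 being the exception (adjusted p up to 0.15). Without Control 3 ARC differed by −1.17 at 24 h (limma adjusted p = 5.2e-05), KLF2 by 1.21 and 1.07 at the 2 times, and CCN2 by 0.83 and 0.84. KLF2 and CCN2 kept their calls whichever array was left out. KLF2 and CCN2, like MIDN, had every JQ1 array above every control. All JQ1 arrays of a time lay so for 11.3% of all genes at 12 h and 13.3% at 24 h. KLF2 stood at 9.86, 9.50 and 9.76 at 12 h and 9.61, 9.50 and 9.59 at 24 h, against 8.55, 8.44 and 8.03 in Controls 1, 2 and 3.

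The same list depended on Control 3. Without it 2 rose and 10 fell at 12 h, and 2 rose and 9 fell at 24 h, with medians of −0.41 and −0.42. The shares of all genes called were then 9.57% up and 10.5% down at 12 h, and 9.61% and 11.3% at 24 h. Set against the average of Controls 1 and 2, Control 3 was lower for all 22, with a median difference of −0.87. The gap ran from −0.03 for SGK1 to −2.12 for ATF3. Control 3 lay below both of these controls for 21 of the 22, as it did for 40.5% of all genes. For 8 of the 22 all 6 JQ1 arrays lay between Control 3 and the other controls, as for EGR1 and IER3 and for 2.29% of all genes. Chosen after their values were seen, FOS, JUNB and JUN are given as examples and do not span the list. FOS, an AP-1 subunit, stood at 8.31, 7.32 and 8.63 at 12 h and 8.74, 7.22 and 8.93 at 24 h, against 8.01, 8.17 and 6.58 in Controls 1, 2 and 3, and was not called with or without Control 3 (limma adjusted p = 0.71 and 1.00 at 12 h, 0.51 and 0.86 at 24 h). JUNB stood at 9.18, 8.35 and 8.98 at 12 h and 9.25, 8.43 and 8.98 at 24 h, against 9.46, 9.52 and 7.42. It was not called with or without Control 3 either (limma adjusted p = 0.98 and 0.13 at 12 h, 0.95 and 0.16 at 24 h). JUN differed from control by −0.68 (adjusted p = 0.12) at 12 h and −0.83 (adjusted p = 0.0504) at 24 h, and without Control 3 by −1.01 and −1.16 (limma adjusted p = 5.2e-05 and 2.1e-05).

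**Figure D3:**
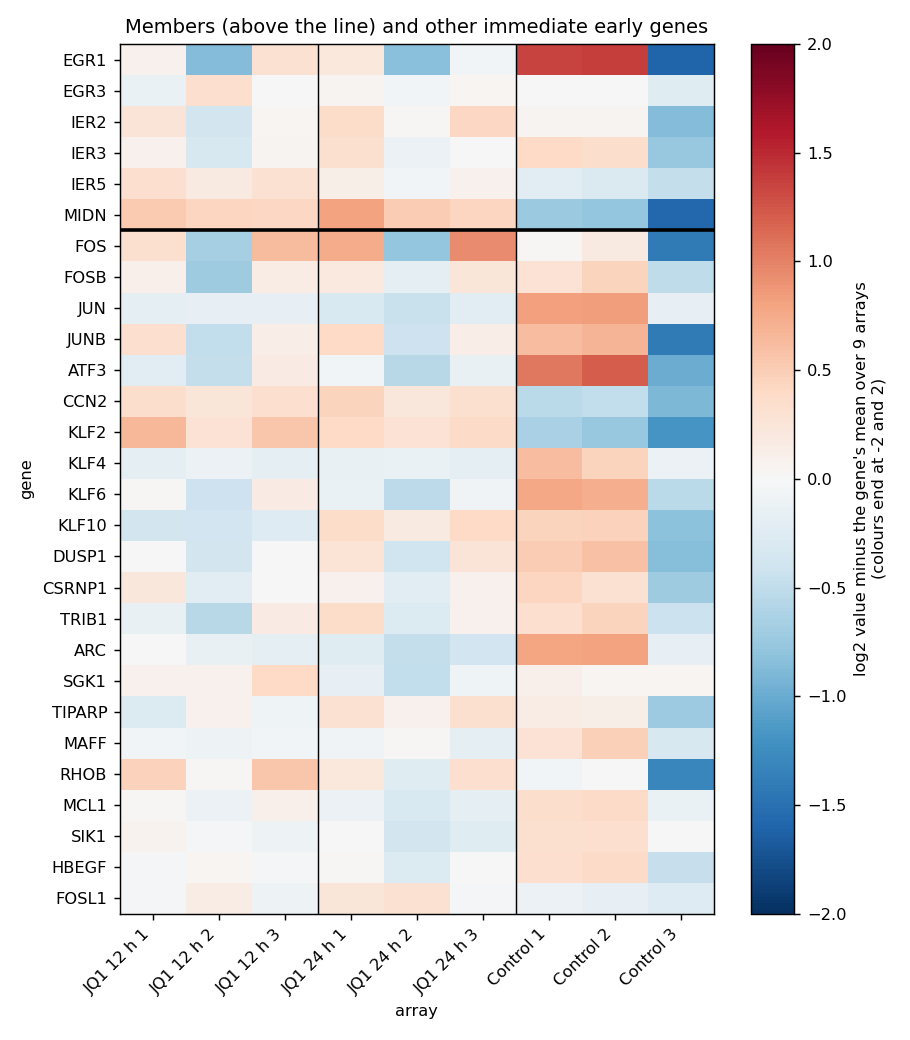
Each row is a gene and each column an array, coloured by the log2 value minus the gene's mean over the 9 arrays; the 6 genes of the set are above the line and the 22 other immediate early genes below it. MIDN, CCN2 and KLF2 were high in all 6 JQ1 arrays, EGR1 and ATF3 were high in Controls 1 and 2, and Control 3 was low in most rows.

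Of the paralogs and partners of the set, 4 of 9 were measured and 0 were called by limma at 12 h or 24 h (0 and 1 at an unadjusted p under 0.05). Of all genes 3.54% were called up and 4.39% down at 12 h, and 5.17% and 6.34% at 24 h. Without Control 3 these shares were 9.57% and 10.5% at 12 h, and 9.61% and 11.3% at 24 h. With so few genes measured, nothing is read from the counts in this list or the next. The transcriptional corepressor NAB2, which binds EGR proteins and was named after its values were seen, differed by −0.22 (SE 0.14, adjusted p = 0.42) at 12 h and 0.03 (SE 0.14, adjusted p = 0.94) at 24 h, and without Control 3 by −0.37 (limma adjusted p = 0.036) and −0.12. Of SRF and its cofactors 3 of 6 were measured and 0 were called by limma at either time (0 and 1 at an unadjusted p under 0.05). SRF and its coactivator MRTFB were named after their values were seen. SRF differed by −0.14 (SE 0.08, limma adjusted p = 0.39) and −0.23 (SE 0.08, adjusted p = 0.12), and without Control 3 by −0.20 (adjusted p = 0.16) and −0.29 (adjusted p = 0.043). MRTFB overlapped the controls with all arrays and differed by 0.29 and 0.51 (limma adjusted p = 0.60 and 0.26), and without Control 3 by 0.65 and 0.87 (adjusted p = 0.0021 and 0.00040). Between 24 h and 12 h 0 genes of these 2 lists were called by limma, with all arrays (2 at an unadjusted p under 0.05, IER3IP1 and NAB1) or without Control 3.

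HSF1 and heat shock genes, which bear on the role of IER5, had 5 of 8 measured. Of all genes 3.54% were called up at 12 h and 5.17% at 24 h (9.57% and 9.61% without Control 3). Among the 5, 2 were called up and 0 down by limma at each time (2 and 0 also at an unadjusted p under 0.05). These were the HSP70 genes HSPA1B (1.53, SE 0.31, limma adjusted p = 0.019 at 12 h and 1.35, adjusted p = 0.024 at 24 h) and HSPA1A (1.44, SE 0.27, adjusted p = 0.014 and 1.27, adjusted p = 0.017), whose sequences are so alike that their probes may read both. Each of these calls was lost without at least 1 control and at least 1 JQ1 array (adjusted p up to 0.083). Without Control 3 the differences were 1.99 and 1.81 for HSPA1B and 1.83 and 1.67 for HSPA1A, and 3 genes were called up at each time. The added gene was HSPH1, another heat shock protein gene, at 0.91 and 0.60 (limma adjusted p = 7.2e-05 and 0.00072), against 0.50 and 0.19 with all arrays (adjusted p = 0.36 and 0.76). HSF1 itself, named after its values were seen, differed by −0.10 at both times (adjusted p = 0.56 and 0.55), and without Control 3 by −0.15 and −0.14 (adjusted p = 0.33 and 0.35). ZFP36 encodes a protein that destabilises AU-rich mRNAs, and of 9 of its known target mRNAs 5 were measured. ZFP36 itself had no named row, so its level is not known here, and its part in the values of these mRNAs was not tested. CXCL2, a chemokine, fell by 0.69 at both times (SE 0.15, limma adjusted p = 0.025 and 0.020), calls lost without Control 1, Control 2 or replicate 2 or 3 of the JQ1 group compared (up to 0.096 and 0.072). PTGS2, the gene of cyclooxygenase 2, was called at 24 h (−4.03, SE 1.02, adjusted p = 0.034) and lay at −3.71 at 12 h (adjusted p = 0.058). Its call likewise failed without any single one of 8 arrays, Control 3 being the exception (up to 0.12). The PTGS2 controls spread widely, at 9.54 ± 2.64 (SD, n = 3), against 5.83 ± 0.16 at 12 h and 5.51 ± 0.18 at 24 h. The larger PTGS2 differences that follow rest on Controls 1 and 2 alone. Without Control 3 the PTGS2 difference was −5.24 at 12 h and −5.56 at 24 h, or 37.8-fold and 47.0-fold lower (limma adjusted p = 4.9e-08 and 2.8e-08), against 16.3-fold lower at 24 h with all arrays, and CXCL2 stood at −0.85 and −0.84. With all arrays 1 of the 5 was called down at 12 h and 2 at 24 h, beside 4.39% and 6.34% of all genes. At an unadjusted p under 0.05, 4 were down at each time. Without Control 3, 4 of the 5 were called down at each time and 0 up, where 10.5% of all genes were called down at 12 h and 11.3% at 24 h. CXCL8 and VEGFA were called only without Control 3. With all arrays both overlapped the controls (limma adjusted p = 0.16 and 0.12 for CXCL8, 0.14 and 0.092 for VEGFA). The median of the 5 was −1.50 at 12 h and −1.63 at 24 h with all arrays, beside 0.01 for all genes at each time. TNF, also one of the 5 and named after its values were seen, differed by 0.02 and 0.01 (limma adjusted p = 0.94 and 0.95).

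Genes with a profile like that of MIDN or EGR1 were ranked by the root mean square difference over the 9 arrays, after each gene was centred on its own mean. For MIDN, which had an SD of 0.82 over the arrays, the nearest were DGAT1 (0.19 log2 units), KIAA0513 (0.21) and DAAM1 (0.21). DGAT1, a triglyceride synthesis enzyme, stood at 9.24, 9.08 and 9.08 at 12 h and 9.29, 9.08 and 9.25 at 24 h, against 7.87, 7.89 and 7.63 in Controls 1, 2 and 3. For EGR1, with an SD of 0.99, the nearest were SLFN5 (0.31), ATF3 (0.32) and LURAP1L (0.38). ATF3, a stress-induced transcription factor that is also on the immediate early list, stood at 6.44, 6.18 and 6.82 at 12 h and 6.60, 6.11 and 6.51 at 24 h, against 7.70, 7.87 and 5.66 in the controls. It was not called with all arrays (−0.60 and −0.67, limma adjusted p = 0.58 and 0.48) and was lower without Control 3 (−1.31 and −1.38, adjusted p = 0.0013 and 0.00091).

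**Figure D4:**
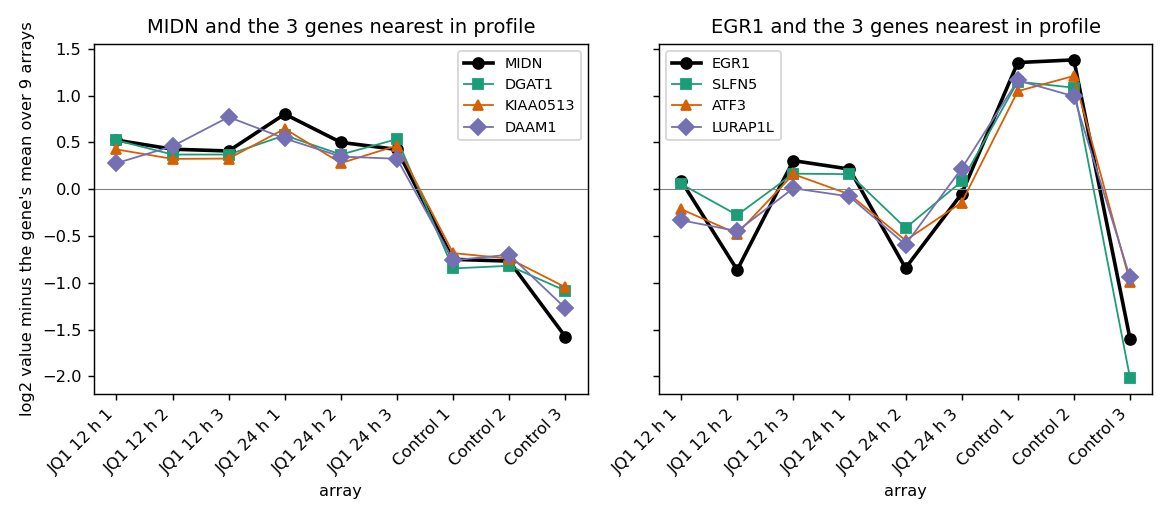
Log2 values, centred on each gene's mean over the 9 arrays, of MIDN (left) and EGR1 (right) in black with the 3 genes nearest to each in colour. The MIDN group steps down between the JQ1 arrays and all 3 controls, and the EGR1 group is highest in Controls 1 and 2 with Control 3 at the bottom.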

How the data were processed

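The authors deposited 1 table of log2 values with 53617 rows and 9 columns, 1 per array, per the labels; the log2 unit was inferred from the deposited values. Transcriptome Analysis Console is named in the submitters' processing notes. Its version, background correction, normalization and probe summarisation are not given in the sources used here. Of the rows, 16098 carried 1 gene symbol in the platform's gene table. Rows with no symbol or with several were left out and are unnamed here. All 16098 matched RefSeq by gene ID.

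The comparisons used limma 3.58.1 (R 4.3.3; 1 mean per group, all 9 arrays, empirical Bayes without trend), with Benjamini-Hochberg adjustment over 14884 genes within each comparison. Without Control 3 the same fit used 8 arrays. The members and lists were chosen with earlier results of these data known. Named from the other lists were called genes whose groups did not overlap; any other gene of these lists was named after its values were seen. P-values set each difference against the spread between arrays within groups, which may be technical, and the 3 arrays per group limit the precision. Same-numbered arrays of different groups correlated between −0.32 and 0.22 in their deviations from group means, so the numbers were not taken to pair them.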

Additional observations from a re-analysis of the deposited data

How the results depend on the processing

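The differences of MIDN and IER5 from control, known when the set was chosen, lay above 0 under every alternative tried. Fitting only the 2 groups compared left 1 of the 6 genes (MIDN) called at 24 h, and leaving out single arrays gave between 1 and 3 called at 24 h and between 2 and 3 at 12 h. With the replicate number as a block, 2 of the 6 were called at each time, and 967 genes of all were called at 12 h, 1478 at 24 h and 1 between the times, against 1181, 1714 and 1. The block changed no call among the 6 genes. Over all genes, leaving out 1 array gave between 543 and 2986 calls at 12 h, between 786 and 3111 at 24 h and between 1 and 22 for 24 h against 12 h, and fitting only the 2 groups gave 577 and 994. Genes with no call changed sign under some settings: IER3 at 12 h (0.022 with the mean of its rows, 0.11 with its dimmest row, and between −0.43 and 0.15 without 1 array), IER3 at 24 h (between −0.31 and 0.27), IER2 at 12 h (between −0.074 and 0.41), and between the times EGR1 (between −0.42 and 0.24), EGR3 (between −0.16 and 0.075) and IER3 (between −0.011 and 0.21). EGR1 against control stayed below 0 in all of them, between −1.52 and −0.03 at 12 h and between −1.59 and −0.10 at 24 h when 1 array was left out, and was called only without Control 3. Why was not tested. The second EGR1 row, the other IER3 rows and the other lists without Control 3 were added after the data were seen.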
